A study of Mus musculus with 10 samples.

Results

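The genes described here are 10 nuclear genes for mitochondrial fusion, fission and mitophagy, measured by total RNA sequencing of mouse cerebral cortex. They were taken by symbol from a fixed list, and all 10 were found among the 24972 genes of the deposited tables, together with their 34 RefSeq transcripts. The 3 fusion genes are Opa1, Mfn1 and Mfn2, the 4 fission genes are Dnm1l, Fis1, Mff and Mief1, and the 3 mitophagy genes are Pink1, Bnip3 and Fundc1.

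The tissue came from 10 male mice on the C57BL/6 background, all aged 2.5 months. Of these, 5 carried the genotype labelled Atad3 control and 5 the genotype labelled Atad3 nKO, with the controls described as littermates. The abbreviation nKO is used as labelled, since no Cre driver or deleted exon is named with it. All animals were perfused with cold PBS before the cortex was dissected and frozen. Each library is labelled as 1 sample of its genotype, so the p-values measure the spread between these libraries.

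Mitochondria are remodelled by opposing GTPases of the dynamin family. Mitofusins join the outer membranes of neighbouring mitochondria and OPA1 joins their inner membranes, whereas DRP1, the product of Dnm1l, is recruited to the surface and constricts the organelle. Damaged mitochondria are removed by autophagy, either after PINK1 accumulates on them and activates the ubiquitin ligase parkin, or through outer membrane receptors such as BNIP3 and FUNDC1 that bind LC3 directly. In neurons these processes set the supply of mitochondria to axons and synapses. ATAD3A, the product of the targeted gene, is an ATPase of the inner mitochondrial membrane.

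Several members are spliced into alternative forms, and the exons that distinguish the forms described below are shown first. They were read from the GENCODE vM21 transcripts matched to the RefSeq identifiers (build GRCm38, equivalent to mm10). Capitals mark the alternative exon, or the coding bases of an alternative first coding exon, and lower case marks 10 bases of the neighbouring exon on a side where one is joined. In Opa1 on chromosome 16 the exon of 54 bases at chr16:29588823-29588876 (plus strand) is present in NM_001199177 and absent from NM_133752.
Opa1 exon: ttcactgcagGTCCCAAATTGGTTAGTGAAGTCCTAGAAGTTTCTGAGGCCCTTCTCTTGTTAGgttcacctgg
In Mff the exon of 159 bases at chr1:82741818-82741976 (plus strand) is in NM_029409 and in none of the other 3 Mff transcripts, and the exon of 60 bases at chr1:82747083-82747142 is absent from NM_001310699 only.
Mff exon of 159 bases: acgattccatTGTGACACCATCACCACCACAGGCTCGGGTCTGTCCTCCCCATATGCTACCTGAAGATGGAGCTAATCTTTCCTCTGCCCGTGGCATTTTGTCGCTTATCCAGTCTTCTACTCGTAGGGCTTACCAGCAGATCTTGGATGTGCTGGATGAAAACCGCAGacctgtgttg
Mff exon of 60 bases: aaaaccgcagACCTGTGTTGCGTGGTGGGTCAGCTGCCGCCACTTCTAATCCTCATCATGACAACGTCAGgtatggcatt
Dnm1l, on the minus strand of chromosome 16, has an exon of 39 bases at chr16:16342697-16342735 in the part that codes for the GTPase domain, and exons of 78 bases (chr16:16318764-16318841) and 33 bases (chr16:16318445-16318477) in the part that codes for the variable domain.
Dnm1l exon of 39 bases: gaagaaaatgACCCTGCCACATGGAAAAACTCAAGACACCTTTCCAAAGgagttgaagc
Dnm1l exon of 78 bases: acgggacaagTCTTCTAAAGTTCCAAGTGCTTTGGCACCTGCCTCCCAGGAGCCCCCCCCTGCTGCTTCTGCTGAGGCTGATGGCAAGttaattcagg
Dnm1l exon of 33 bases: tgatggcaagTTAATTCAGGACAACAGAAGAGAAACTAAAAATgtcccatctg
Fis1 has 2 alternative starts of its coding sequence, with 45 coding bases at chr5:136962184-136962228 in NM_025562 and 24 coding bases at chr5:136953567-136953590 in NM_001163243 (plus strand).
Fis1 start in NM_025562: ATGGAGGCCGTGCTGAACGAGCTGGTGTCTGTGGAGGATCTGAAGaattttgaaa
Fis1 start in NM_001163243: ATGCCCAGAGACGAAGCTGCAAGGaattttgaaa
Each exon and start printed here has a length that is a multiple of 3 bases, so each keeps the reading frame of the exons that follow. A further Dnm1l exon of 47 bases (chr16:16341422-16341468), absent from NM_001276341, is not printed, and its length is not a multiple of 3.

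The libraries held 14812639 to 24161361 estimated counts, and 16953 to 17492 genes had at least 1 count. Estimated counts are the reads that Salmon assigned to each gene, given below as CPM, the count relative to the library size after TMM scaling. TPM also divides by an effective length and is used to compare genes. The first principal component held 33.6% of the variance, with control 1 and nKO 4 at its ends. Across the 14378 genes with enough counts to test, edgeR's quasi-likelihood test called 2 (0.0139%) at an adjusted p under 0.05, Atad3a and Fam155a. Atad3a stood at 26.6, 22.5, 24.5, 22.5 and 22.2 CPM in controls 1 to 5 and at 11.5, 11.7, 14.4, 8.95 and 10.8 CPM in nKO 1 to 5, so every nKO library was below every control. Its log2 fold change was -1.04 (SE 0.12, edgeR adjusted p = 0.00634), and on the TPM scale the nKO mean was 51.7% of the control mean. The cortex was a mixture of cell types, so fewer cells of a type and less RNA per cell cannot be told apart.

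None of the 10 genes passed the test across all genes. All 10 passed the filter on low counts; 5 were higher and 5 lower in nKO, and 0 had an edgeR adjusted p under 0.05, against 0.0139% of all tested genes; DESeq2 and limma-voom also called 0 of the 10. At an unadjusted p under 0.05, 1 of the 10, Mfn1, was higher and 0 were lower, where 3.36% of all tested genes were higher and 2.29% lower at that level. The median log2 fold change of the 10 was -0.0050, beside -0.0078 for all tested genes. The CPM of the groups did not overlap for 1 of the 10, again Mfn1, and for 1.38% of all tested genes. The lowest count behind any of these values was 575, for Fundc1 in nKO 2, and the highest 8894, for Dnm1l in control 3.

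Levels differed 21.1-fold between the most and least abundant gene in the control cortex. Pink1 was the highest at 434 ± 12.01 TPM (SD, n = 5) and exceeded 97.7% of tested genes or equalled them. Mff (306 ± 27.6 TPM), Fis1 (287 ± 18.4 TPM) and Bnip3 (277 ± 23.5 TPM) followed, and neighbours among these 3 overlapped: Mff exceeded Fis1 in 3 of the 5 controls and Fis1 exceeded Bnip3 in 4. Below them the control libraries kept every neighbouring pair apart, with Dnm1l at 194 ± 24.0 TPM, Opa1 at 128 ± 7.56, Mfn2 at 100.4 ± 20.1, Fundc1 at 51.2 ± 4.20, Mfn1 at 37.2 ± 3.12 and Mief1 at 20.6 ± 1.38. Adaptor RNAs of the fission machinery thus spanned a wide range, since Mff stood 14.9 ± 1.09 times above Mief1 within the control libraries and 14.3 ± 1.03 times above it in nKO. In nKO the mean TPM followed the same order from Pink1 to Mief1, and of the neighbouring pairs only Fis1 with Bnip3 and Fundc1 with Mfn1 were reversed in 1 library each.

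**Figure D1:**
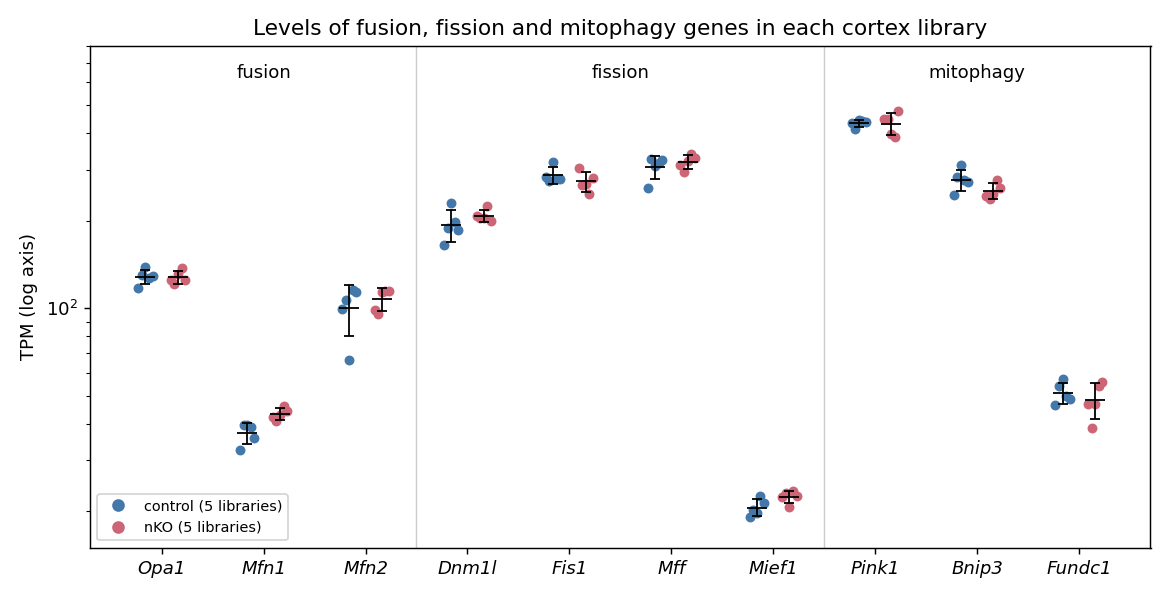
TPM (log axis) of the 10 genes in each of the 5 control and 5 nKO libraries, with the mean and SD in black. The levels run from Mief1 near 20.6 TPM to Pink1 near 434 TPM; Mfn1 is the gene whose 5 nKO points all lie above its 5 control points.

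Opa1, the inner membrane fusion GTPase on chromosome 16 (29579334 to 29654884, plus strand), was at nearly the same level in both genotypes. It measured 282, 305, 329, 301 and 294 CPM in controls 1 to 5 and 284, 274, 298, 331 and 299 CPM in nKO 1 to 5. The 2 groups overlapped almost completely, with the lowest and the highest library both in nKO. With an SE of 0.07, the fitted log2 difference was -0.03 (95% interval -0.17 to 0.12), for an edgeR adjusted p of 0.972. TPM was 128 ± 7.56 in controls and 128 ± 6.46 in nKO.

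Mfn1 encodes the mitofusin that is known chiefly for tethering outer membranes, and it lies on chromosome 3 (32529465 to 32579239, plus strand). Controls 1 to 5 held 59.7, 70.6, 71.6, 70.3 and 61.8 CPM, and nKO 1 to 5 held 73.3, 71.8, 73.9, 84.3 and 80.1 CPM. All 5 nKO libraries were above all 5 controls, although nKO 2 and control 3 were only 71.8 and 71.6 CPM. The log2 fold change of 0.20 (SE 0.08) had a 95% interval from 0.03 to 0.37 and an unadjusted p of 0.026 in the edgeR fit. Adjusted over all genes this p was 0.82, so Mfn1 did not pass the test. TPM gave 37.2 ± 3.12 in controls and 43.3 ± 2.07 in nKO, or 116% of the control mean, again with no overlap. The unadjusted p rose above 0.05 when control 1, control 5, nKO 4 or nKO 5 was left out, with log2 fold changes of 0.15 to 0.23 over all libraries left out in turn, and it was 0.14 (log2 fold change 0.12) without both control 1 and nKO 4.

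Mfn2, the mitofusin also known for contacts between mitochondria and the endoplasmic reticulum (chromosome 4, 147873599 to 147904704, minus strand), held 1 control library far below the rest. Controls 1 to 5 held 185, 164, 102.1, 185 and 180 CPM, and nKO 1 to 5 held 154, 153, 180, 162 and 176 CPM. Control 3 was far below all the others, while the remaining controls and the nKO libraries overlapped. The log2 fold change was 0.02 (SE 0.14, edgeR adjusted p = 0.992) with all libraries and -0.11 without control 3 (edgeR adjusted p = 0.847); it was also below 0 without nKO 3 (-0.024) or nKO 5 (-0.010). In TPM, control 3 held 66.4 against 99.1 to 116 in the other controls. The ratio of Mfn2 to Mfn1 TPM was 1.68 in control 3, 2.70 to 3.19 in the other controls and 2.33 to 2.67 in nKO.

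**Figure D2:**
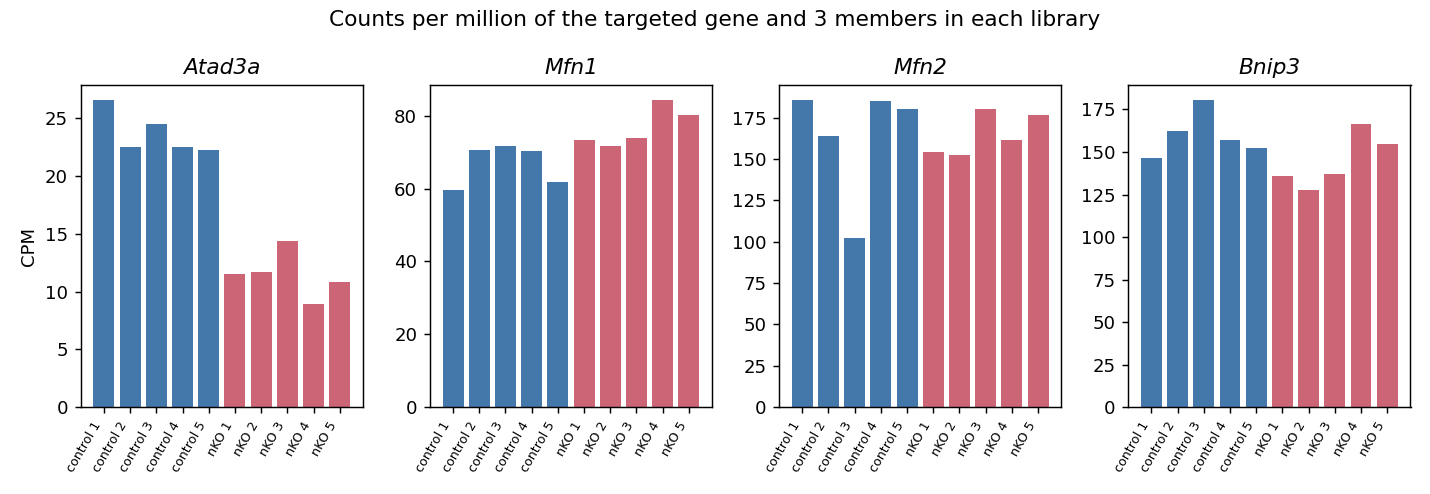
CPM of the targeted gene Atad3a and of Mfn1, Mfn2 and Bnip3 in each library, controls in blue and nKO in red. Atad3a is lower in all 5 nKO libraries, Mfn1 is higher in all 5 by a small margin, and the low bar for Mfn2 is control 3 at 102.1 CPM.

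Among the fission genes, Dnm1l codes for the GTPase that constricts the organelle (chromosome 16, 16312230 to 16358959, minus strand). It measured 262, 291, 365, 307 and 279 CPM in controls 1 to 5 and 307, 297, 306, 359 and 314 CPM in nKO 1 to 5. Control 3 and nKO 4 were the high libraries of their groups and the groups overlapped, with a log2 fold change of 0.07 (SE 0.09, edgeR adjusted p = 0.909). The value was 0.15 without control 3 (unadjusted p = 0.0585) and 0.018 without nKO 4. Opa1 TPM divided by Dnm1l TPM, a ratio of a fusion to a fission GTPase, was 0.598 to 0.708 in controls and 0.590 to 0.641 in nKO, so these ranges overlapped too.

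The genes of the outer membrane proteins of fission did not pass the test either. Mff, its main receptor (chromosome 1), measured 175 to 214 CPM in controls and 191 to 227 CPM in nKO, with a log2 fold change of 0.05 (SE 0.07, edgeR adjusted p = 0.932), or 0.0013 without control 1 and 0.0054 without nKO 4. Mief1, which codes for the adaptor MiD51 (chromosome 15), measured 37.2 to 43.3 CPM and 38.8 to 43.7 CPM, with a log2 fold change of 0.07 (SE 0.07, edgeR adjusted p = 0.88). Fis1, which codes for a small tail-anchored outer membrane protein (chromosome 5), stood at 80.1, 62.1, 71.4, 64.1 and 64.5 CPM in controls and 71.2, 62.2, 63.5, 49.8 and 62.3 CPM in nKO. Its highest library was control 1 and its lowest nKO 4, and the log2 fold change was -0.15 (SE 0.10, edgeR adjusted p = 0.847), or -0.086 without either of these libraries in turn.

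Pink1 codes for the kinase that marks damaged mitochondria (chromosome 4, 138313409 to 138326307, minus strand), and its reading depended on the scale. In CPM controls 1 to 5 held 361, 233, 248, 263 and 265, and nKO 1 to 5 held 269, 272, 243, 184 and 268. Control 1 was high, nKO 4 was low, and the other libraries of both groups lay between 233 and 272 CPM. From the counts, the fitted log2 difference between genotypes was -0.15 (SE 0.13), its 95% interval ran from -0.43 to 0.13, and the edgeR adjusted p was 0.861. It was -0.031 without control 1, -0.067 without nKO 4 and 0.049 without both. In TPM the same libraries held 433, 414, 444, 442 and 438 in controls and 448, 447, 398, 389 and 477 in nKO, with means of 434 ± 12.01 and 432 ± 37.3. Control 1 was then within the range of the other controls, and nKO 4 remained the lowest.

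The 2 scales differ by the effective length deposited for each gene in each library, the length over which Salmon expects reads to start. For Pink1 it ran from 1267 bases in nKO 4 to 2001 bases in control 1, a ratio of 1.58, against a median ratio of 1.14 between the highest and lowest library over all genes; 88.4% of genes had a smaller ratio. Among the other members the ratio was 1.26 for Fis1, 1.20 for Fundc1 and 1.19 for Mfn2, and 1.07 to 1.12 for the remaining 6. The GENCODE transcript matched to Pink1 had a GC content of 59.0%, at the 92.2nd percentile of the genes with a matched transcript. Over those 13907 genes (96.7% of the genes tested), the median effective length in control 1 divided by that in nKO 4 was 0.875 in the tenth of genes lowest in GC and 1.85 in the tenth highest in GC. The other members ordered likewise, from 0.871 for Fundc1 (GC 38.8%) to 1.26 for Fis1 (GC 56.6%).

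**Figure D3:**
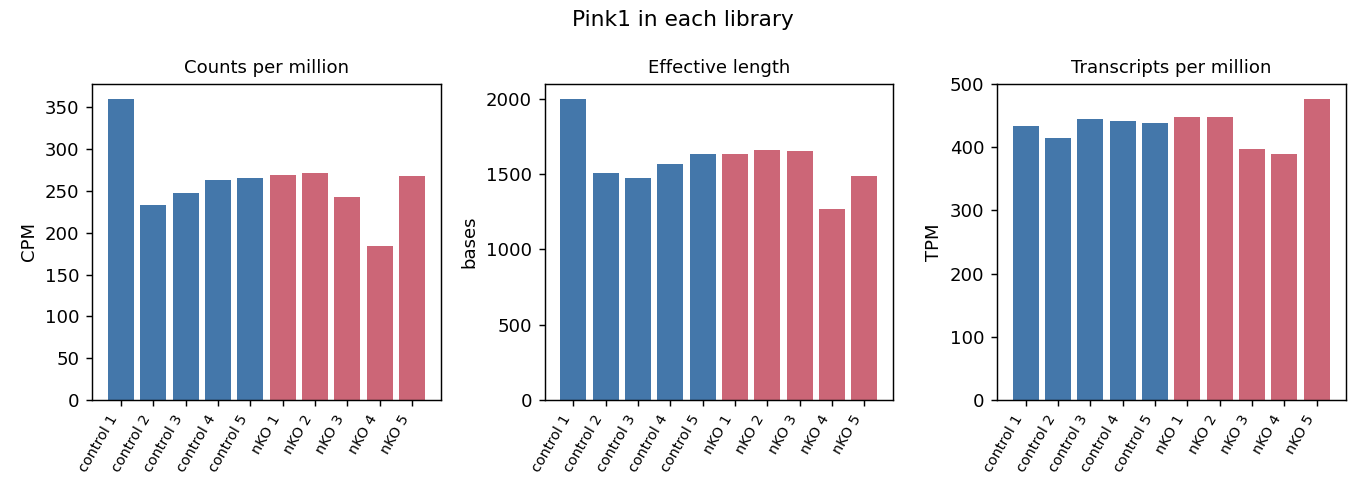
Pink1 in each library as CPM, as effective length in bases and as TPM, with controls in blue and nKO in red. Control 1 has both the highest CPM (361) and the longest effective length (2001 bases), nKO 4 has the lowest of both, and TPM in control 1 (433) is close to that of the other controls.

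With the effective lengths entered as offsets in the same edgeR fit, the standard error was smaller for 93.3% of all genes and for 10 of the 10 members, and its median over genes went from 0.123 to 0.101. Pink1 then had a log2 fold change of -0.06 (SE 0.07, edgeR adjusted p = 0.775). Mfn1 stood at 0.17 (SE 0.06, 95% interval 0.04 to 0.29, unadjusted p = 0.0122, edgeR adjusted p = 0.485). No member passed the adjusted threshold in that fit. With offsets 5.5% of all tested genes were higher and 4.19% lower at an unadjusted p under 0.05; 1 member, Mfn1, was higher and 1, Bnip3, was lower at that level.

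Bnip3 codes for a mitophagy receptor that is a known target of hypoxia-inducible factor (chromosome 7, 138890836 to 138909519, minus strand). Controls 1 to 5 held 147, 162, 180, 157 and 152 CPM, and nKO 1 to 5 held 136, 127, 137, 167 and 155 CPM. The 3 lowest libraries were all nKO, but nKO 4 and nKO 5 lay among the controls. The log2 fold change was -0.15 (SE 0.09, unadjusted p = 0.114, edgeR adjusted p = 0.826), and with effective length offsets it was -0.18 (SE 0.06, 95% interval -0.30 to -0.06, unadjusted p = 0.00723, edgeR adjusted p = 0.466). Without nKO 4 it was -0.21 (unadjusted p = 0.0252, edgeR adjusted p = 0.95), and with control 1 left out too it was -0.24. TPM was 277 ± 23.5 in controls and 253 ± 15.7 in nKO.

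Fundc1, a receptor that is also tied to mitophagy under low oxygen (chromosome X, 17556564 to 17572325, minus strand), held 48.3, 54.1, 58.2, 48.6 and 48.2 CPM in controls and 45.5, 34.0, 45.0, 57.9 and 59.0 CPM in nKO. Library nKO 2 was the lowest and nKO 5 the highest of all 10, and the log2 fold change was -0.09 (SE 0.13, edgeR adjusted p = 0.923). The Bnip3 to Fundc1 ratio in TPM was 5.25 to 5.55 in controls and spread more widely, from 4.67 to 6.13, in nKO.

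**Figure D4:**
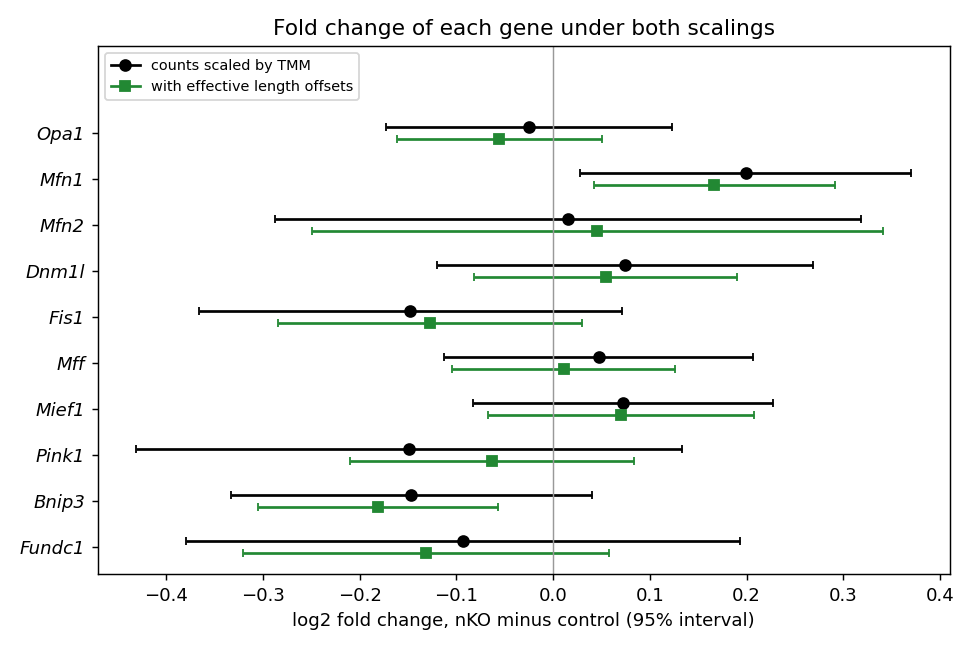
Log2 fold change of each gene, nKO minus control, with 95% intervals, from counts scaled by TMM (circles) and with effective length offsets (squares). The intervals cover 0 except for Mfn1 under both scalings (0.20 and 0.17) and Bnip3 with offsets (-0.18); none of these passed the adjusted test.

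Of the 34 RefSeq transcripts of these genes, 28 had a mean TPM of at least 1, and 4 genes (Mfn1, Pink1, Bnip3 and Fundc1) had 1 such transcript each. The edgeR test was run on 22343 transcripts and called 0 of them (0%) at an adjusted p under 0.05, with 3.6% at an unadjusted p under 0.05; limma-voom called 1, a transcript of Fam155a. Of the members' 27 tested transcripts with a mean TPM of at least 1, 10 were higher and 17 lower in nKO, all with an edgeR adjusted p of 1, and 1, that of Mfn1, had an unadjusted p under 0.05. The division of a gene's reads among its transcripts was tested in 4732 genes, of which 1 (0.0211%), Cds2, was called; the 6 members tested there had an edgeR adjusted p of 1. The usage test had low power on simulated data, so the lack of a call does not show that usage was equal. Salmon divides reads that fit several transcripts by an estimate, and the error of that estimate is not part of these tests.

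Opa1 RNA in the cortex was almost all of the form without the exon of 54 bases shown above. NM_133752 made up 91.3 to 95.9% of Opa1 TPM in controls and 90.1 to 96.7% in nKO (exact two-sided permutation p = 0.937). NM_001199177, which carries the exon, held 5.52, 11.2, 9.20, 5.20 and 8.77 TPM in controls 1 to 5 and 12.4, 3.98, 5.16, 5.12 and 11.9 TPM in nKO 1 to 5. The nKO libraries thus fell both below and above the controls.

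Mff was led by NM_029409, the form with both alternative exons, at 60.4 ± 1.49% of Mff TPM in controls and 61.6 ± 2.91% in nKO (exact permutation p = 0.405). NM_001310695, without the exon of 159 bases, made up 21.7 ± 0.926% and 22.7 ± 1.10%. NM_001310699, which lacks both exons, made up 16.2 ± 1.76% and 14.0 ± 2.34%, and NM_001310697 made up 1.74 ± 0.469% and 1.71 ± 1.36%. For NM_029409 the share ran from 58.2 to 62.3% in controls and from 56.9 to 63.8% in nKO.

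Fis1 was divided between 2 starts of the coding sequence. NM_025562 made up 59.4 ± 3.42% of Fis1 TPM in controls and 57.9 ± 2.84% in nKO (exact permutation p = 0.468), and NM_001163243 made up 38.4 ± 4.15% and 40.5 ± 3.08%. The share of NM_001347504 was highest in control 1, at 3.52%.

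**Figure D5:**
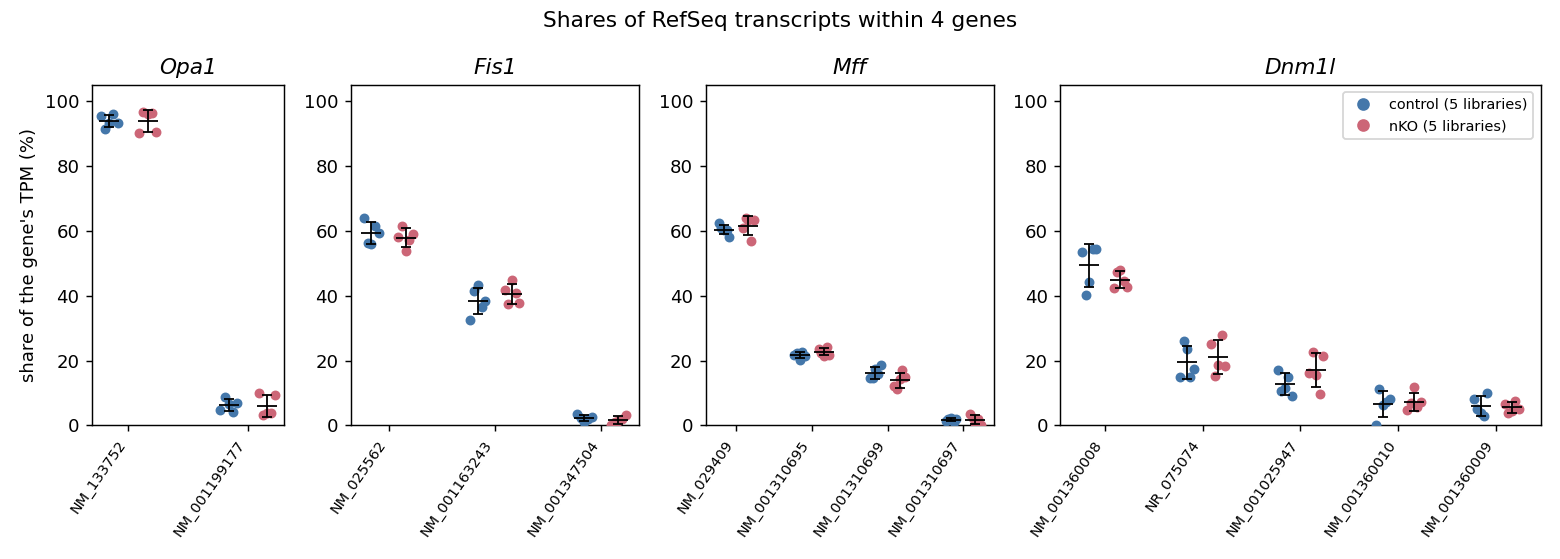
Share of a gene's TPM (%) carried by each RefSeq transcript of Opa1, Fis1 and Mff and by the 5 most abundant of Dnm1l, in the 5 control and 5 nKO libraries, with mean and SD. The 2 genotypes overlap for each transcript plotted, and the libraries spread most for Dnm1l, whose first form runs from 40.3 to 54.3% in controls.

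Dnm1l had the most forms, with 8 of its 9 transcripts at a mean TPM of at least 1. NM_001360008 was the most abundant at 95.1 ± 12.8 TPM in controls and 93.8 ± 6.81 TPM in nKO, or 49.4 ± 6.59% and 45.0 ± 2.57% of Dnm1l TPM (exact permutation p = 0.198). It is 150 bases longer than NM_001025947, which lacks the 3 Dnm1l exons shown above. The exons of 33, 78 and 39 bases add up to the same 150 bases. The exons of NM_001360008 were not matched to the annotation, however, and length alone does not give them. NR_075074, with the exons of 33 and 78 bases, is 80 bases shorter than NM_001025947. NR_075074 held 38.2 ± 13.04 TPM in controls and 44.1 ± 12.96 TPM in nKO. NM_152816, the form with the exon of 39 bases alone, was listed at 0 in all 10 libraries.

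NM_001025947, the Dnm1l form without these exons, held 28.5, 20.2, 26.4, 29.8 and 17.0 TPM in controls 1 to 5 and 33.3, 46.5, 31.8, 21.6 and 42.7 TPM in nKO 1 to 5. Libraries nKO 1, 2, 3 and 5 were above all controls, and nKO 4 lay among them. Its log2 fold change was 0.48 (SE 0.22) with an unadjusted p of 0.058, a 95% interval from -0.02 to 0.99 and an edgeR adjusted p of 1. The minor forms varied more between libraries than between groups: NM_001360010 was listed at 0 in control 1 and at 14.4 to 21.2 TPM in the other controls, and NM_001360007 was listed at 0 in 7 of the 10 libraries.

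Mfn2 and Mief1 each had a dominant form. NM_133201 made up 75.6 ± 4.96% of Mfn2 TPM in controls and 80.0 ± 4.66% in nKO (exact permutation p = 0.159), with the 4 other named forms at 2.91 to 7.25% in either group. NM_178719 made up 80.4 ± 13.6% of Mief1 TPM in controls and 86.0 ± 15.5% in nKO (exact permutation p = 0.54), and its share ran upward from 63.4%. The other Mief1 forms were listed at 0 in nKO 3 and nKO 4, which does not show that they were absent. Adjusted over the 6 shares tested, the exact permutation p-values were 0.595 to 0.937.

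The other genes of the same pathways, taken from 6 lists, gave 0 calls by the edgeR test. Over all tested genes 6866 were higher and 7512 lower in nKO, with a median log2 fold change of -0.0078. The directions given for each list are those of the TMM-scaled counts, and many genes counted as lower had a slightly higher mean TPM in nKO. By mean TPM the majority turned to higher for the fission partners and for the autophagy genes. In the other lists the majority of lower genes shrank or was lost. Summed TPM of the tested genes overlapped between the groups in all 6 lists. For the fission partners it was 1012 to 1199 in controls and 1094 to 1131 in nKO. Of 10 tested regulators of fusion and OPA1 processing, 3 were higher and 7 lower, with a median log2 fold change of -0.07. Stoml2, a prohibitin relative of the inner membrane, had -0.21 (SE 0.10), the prohibitin gene Phb had -0.17 (SE 0.10), and Phb2 had -0.15 (SE 0.12). Of 15 fission partners, 3 were higher and 12 lower in the scaled counts, with a median of -0.04. By mean TPM most of the 15 were instead higher in nKO, so the direction of this list depended on the scale. Mtfp1, which codes for an inner membrane fission protein, had -0.19 (SE 0.07, unadjusted p = 0.0247, edgeR adjusted p = 0.82), and Ppp2r2b had -0.09. Akap1, a kinase anchor that brings protein kinase A to DRP1, had -0.08 (SE 0.07). In TPM Akap1 was nearly level, at 35.1 ± 0.727 in controls and 35.3 ± 1.51 in nKO.

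Of 16 genes of the PINK1 and parkin pathway, 4 were higher and 12 lower, with a median of -0.04. Htra2, a protease of the intermembrane space, had -0.25 (SE 0.11, unadjusted p = 0.0362, edgeR adjusted p = 0.82), Park7 (DJ-1) had -0.22 (SE 0.11) and the import pore gene Tomm40 had -0.22 (SE 0.22). In TPM, Htra2 was at 28.6 ± 3.24 in controls and 26.1 ± 1.71 in nKO, and Park7 at 199 ± 17.1 and 182 ± 12.5. Tomm40, at 79.9 ± 7.25 and 79.5 ± 8.16 TPM, was nearly level on that scale. Of 8 other mitophagy receptors and regulators, 3 were higher and 5 lower, with a median of -0.05. Fkbp8, an outer membrane receptor for LC3, had -0.46 with an SE of 0.29, Nipsnap2 had -0.09 and Nlrx1 had -0.25 (SE 0.26). Their TPM in controls and nKO was 335 ± 35.8 and 293 ± 32.6 for Fkbp8, 87.4 ± 8.19 and 84.5 ± 2.11 for Nipsnap2, and 5.80 ± 1.24 and 5.60 ± 0.879 for Nlrx1.

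Of 24 tested autophagy adaptors and core genes, 8 were higher and 16 lower in the scaled counts, with a median of -0.03. By mean TPM most of the 24 were instead higher in nKO, so the direction of this list depended on the scale. The cargo adaptor Tax1bp1 had 0.30 (SE 0.12, unadjusted p = 0.0309), Sqstm1 (p62) had -0.15 (SE 0.07, unadjusted p = 0.0413) and Atg14 had -0.22 (SE 0.11), each with an edgeR adjusted p of 0.82. Of 12 targets of hypoxia-inducible factor, the pathway that also drives Bnip3, 3 were higher and 9 lower, with a median of -0.04. Ldha (lactate dehydrogenase A) had -0.16 (SE 0.06, unadjusted p = 0.0215, edgeR adjusted p = 0.82), P4ha1 had 0.18 and Ddit4 had 0.26.

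Cell type markers were read beside these values. The 5 excitatory neuron markers summed to 1184 to 1468 TPM in controls and 1436 to 1606 TPM in nKO, so the groups overlapped. In the fit 4 of these 5 were higher, among them Tbr1, a transcription factor of deep cortical layers (log2 fold change 0.57, SE 0.14, unadjusted p = 0.00158, edgeR adjusted p = 0.82). Of the inhibitory markers 2 were higher and 3 lower, of the astrocyte markers 0 and 5, of the oligodendrocyte markers 2 and 3, and of the microglial markers 2 and 3. The 5 inhibitory markers summed to 771 to 994 TPM and 950.3 to 1018 TPM, the 5 astrocyte markers to 649 to 813 TPM and 691 to 802 TPM, and the 5 oligodendrocyte markers to 1409 to 1729 TPM and 1505 to 1861 TPM. Microglial markers summed to 284 to 368 TPM in controls and 315 to 355 TPM in nKO, oligodendrocyte precursor markers to 43.0 to 52.2 TPM and 51.1 to 60.03 TPM, endothelial markers to 184 to 225 TPM and 183 to 235 TPM, and mural markers to 111 to 139 TPM and 125 to 139 TPM. The 3 striatal markers summed to 12.95 to 18.01 TPM and 12.2 to 18.7 TPM, and the only tested marker of hippocampus, choroid plexus and blood was at 2.98 to 3.72 and 4.12 to 5.23 TPM (Prox1), 0.607 to 1.67 and 1.37 to 2.59 TPM (Kl), and 0.235 to 2.03 and 0.203 to 2.41 TPM (Alas2). The haemoglobin gene Hba-a1 did not pass the count filter and was at 61.2 ± 88.7 TPM in controls and 13.96 ± 21.1 TPM in nKO. No tested marker passed the edgeR adjusted threshold.

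As a description of how each gene varied, the tested gene with the most similar log2 CPM over the 10 libraries was Asph for Opa1 (Pearson 0.984), Sfpq for Mfn1 (0.957), Nabp2 for Mfn2 (0.978), Asb7 for Dnm1l (0.954) and Atxn7l3 for Fis1 (0.976). It was Zzz3 for Mff (0.982), Taok3 for Mief1 (0.931), Mgll for Pink1 (0.983), Nap1l3 for Bnip3 (0.967) and Ccnc for Fundc1 (0.971). In log2 TPM the most similar gene was the same for Opa1 (Asph, 0.990) and Mfn2 (Nabp2, 0.976) and another gene for the remaining 8. These values share the same 10 libraries and were picked as the highest of all genes, so no test was made of them.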

How the data were processed

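Total RNA from the cortex of 10 mice was made into stranded libraries with a fragmentation time of 6 min, per the labels' protocols. The authors deposited, per the file headers, estimated counts, TPM, length and effective length for each gene and RefSeq transcript; bcl2fastq, Salmon, DESeq2 and mm10 are named in the submitters' processing notes, and Salmon's settings are not given in the sources used here. The deposited estimated counts were rounded to whole numbers and tested with edgeR 4.0.16 (limma 3.58.1, R 4.3.3) by filterByExpr (minimum count 10, total 15), TMM scaling and the robust quasi-likelihood test. P-values were adjusted by Benjamini-Hochberg over all genes or transcripts, at 5%. SE was taken as the log2 fold change divided by the square root of F, and intervals are 95%. Transcript usage was tested with diffSpliceDGE. TPM values are the authors' deposited ones. Of 42482 transcripts, 97.0% were matched to a gene.

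Genes were named by a rule: Atad3a, all 10 members, their transcripts with a mean TPM of at least 1, the 3 genes of each list with the smallest p, and the gene most similar to each member. The members and lists were chosen with earlier results of these data known. Correlations used log2 CPM with a prior count of 2. Alternatives were DESeq2 1.42.0, limma-voom, other scalings and filters, effective length offsets, 1 surrogate variable (sva 3.50.0) and each library left out. The offsets without control 3 and the TPM correlations were chosen after seeing the data. The tests were checked on simulated data, where the usage test had low power and made more false calls than its threshold allows.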

Additional observations from a re-analysis of the deposited data

Results flagged for a closer look

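In 8 of 94 groups of 5 libraries, taken over the CPM and TPM of Atad3a and the 10 members and the TPM of their named transcripts, the library at one end stood apart by more than 0.71 of the group's range. Chance alone flags about 1 in 20 groups of independent, normally distributed values. CPM, TPM and transcripts of the same gene are not independent, so the 8 of 94 cannot be set against that rate. Mfn2 stood at 102.1 CPM in control 3, against 164 to 185 CPM in the other controls. Pink1 stood at 361 CPM in control 1, against 233 to 265 CPM in the others. Mff in control 1 was low on both scales, at 175 CPM against 204 to 214 CPM and at 258 TPM against 310 to 326 TPM. Fis1 stood at 319.5 TPM in control 3, against 275 to 284 TPM. In the nKO group, Dnm1l stood at 359 CPM in nKO 4, against 297 to 314 CPM. Of its transcripts, NM_001360010 stood at 24.2 TPM in nKO 3, against 10.1 to 14.2 TPM, and NM_001360007 was listed at 3.30 TPM in nKO 2 and at 0 in the other nKO libraries.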

How the results depend on the processing

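No member was called under any of the 22 alternatives to the gene test, and the median log2 fold change of the 10 ran from -0.053 to 0.020 over its 23 alternatives. The count of called genes was 2 under every alternative except the DESeq2 Wald test, with 5 (Atad3a, Dusp11, Fam155a, Malat1 and Slc18b1), and the fit without nKO 1, with 3 (2 to 3 over the libraries left out). The limma-voom fit called 1 transcript, and leaving out a library gave 0 to 1. The usage test called 2 to 9 genes with a library left out and 5 without control 1 and nKO 4, against 1 with all libraries; no member was among them. Without control 1 and nKO 4 the log2 fold change turned to -0.029 for Dnm1l, -0.042 for Mff and 0.049 for Pink1, and to 0.45 for NM_001285923, -0.13 for NR_075074, -0.10 for NM_001360010, -0.11 for NM_001360009 and 0.054 for NM_026880. The count of members at an unadjusted p under 0.05 ran from 0 to 3 over these fits: 0 without control 1, control 5 or nKO 5, 2 (Mfn1 and Bnip3) with offsets or with 1 surrogate variable, and 3 (Mfn1, Bnip3 and Dnm1l, at 0.11, edgeR adjusted p = 0.639) with offsets and without control 3. Mfn2 turned to -0.080 in that last fit and, with the length trend removed from the values of all libraries, to -0.016; NM_001285923 turned to 0.165 in limma-voom. With a library left out, values that changed sign ran from -0.075 to 0.0068 for Opa1, -0.11 to 0.065 for Mfn2 and -0.17 to 0.0042 for Fundc1. Without a change of sign, Pink1 ran from -0.20 to -0.031, Fis1 from -0.20 to -0.086, Dnm1l from 0.018 to 0.15, Mff from 0.0013 to 0.070, Mief1 from 0.049 to 0.10 and Bnip3 from -0.21 to -0.099. Among transcripts whose sign changed they ran from -0.079 to 0.0029 for NM_133752, -0.31 to 0.085 for NM_001199177, -0.052 to 0.15 for NM_133201, -0.36 to 0.53 for NM_001285923, -0.48 to 0.064 for NM_001285920, -0.0062 to 0.36 for NR_075074, -0.15 to 0.43 for NM_001360010, -0.19 to 0.25 for NM_001360009, -0.58 to 0.050 for NM_001276341, -0.13 to 0.0019 for NM_001163243 and -0.43 to 0.30 for NM_001310697. The cause of these turns was not tested. Mfn1 kept its direction under all 23 alternatives (0.12 to 0.23, edgeR, DESeq2 or limma adjusted p 0.257 to 0.950), and Bnip3 did so too (-0.24 to -0.09, adjusted p 0.291 to 0.950). No paired analysis was possible because the labels number the mice in 1 running series and name no litter or batch.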
